A study of Mus musculus with 10 samples.

Results

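The cytoplasmic ribosomal protein genes were taken from a mouse RNA-seq count table by name: every gene called Rps or Rpl followed by a number, with an optional a, l or x, and Rpsa, Rplp0, Rplp1 and Rplp2. This gave 81 of 46959 gene entries, 32 for the small (40S) and 49 for the large (60S) subunit. The rule uses names only, so it passes over genes such as Rps3a1, Fau, Gnb2l1, Rpl7l1, Rpl22l1 and Rpl36al, which are given apart below. The series asked how deletion of 2 enhancers of the immunoglobulin heavy chain locus, and the histone deacetylase inhibitor SAHA (vorinostat), act on transcription of that locus. There were 10 libraries in 5 groups of 2, all from mice of 8 to 10 weeks.

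The LPS_IL4_SAHA and LPS_IL4 groups are spleen B cells depleted of CD43+ cells, labelled as strain 129 and wt, and cultured for 48 h with lipopolysaccharide at 5 µg/ml and interleukin 4 at 20 ng/ml, a mixture that drives B cells to divide. The growth protocol names KOKI and BLACK-6 mice for these cultures, and the design text leaves interleukin 4 out. For SAHA the names state 200 nM, whereas the protocol states 200 ng/ml. The 2KO, deltaEmu and RAG2_deficient groups are uncultured femoral (marrow) cells labelled as B cells, of background C57BL6. What 2KO stands for is not written out; mice without the Eµ enhancer and without the 3′ regulatory region are named in the design text. Wild-type femoral cells were not analysed here. RNA was pooled over mice before sequencing, so replicates are pools and not single mice. Each p-value sets a difference against a spread between pools, estimated over all libraries of its fit.

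Each ribosome carries 1 copy of most of these proteins, and a cell makes them in matched amounts. Their mRNAs are short, abundant, and start with a C and a run of pyrimidines, the terminal oligopyrimidine (TOP) motif, through which mTOR and LARP1 adjust their translation to growth signals. B cells that leave rest for division enlarge and raise ribosome production. Mammalian ribosomal protein genes have also left many processed pseudogenes, copies of the spliced mRNA inserted elsewhere in the genome, and reads from a gene and from a near-identical copy can be hard to separate.

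The motif was looked for at annotated start sites, and most of them did not show it exactly. RefSeq promoter sequences (build GRCm38.p6) were matched for 60 of the 81 genes, with 72 annotated starts. At 13 of the 72 starts (18.06%) the first transcribed base was a C followed by 4 bases that are each C or T, read on the transcribed strand only, against 2.51% of all 32851 starts. The hexamer CCGGAA, the core of sites for ETS family factors, was present on either strand within 250 bases before and 50 after the start in 47.22% of the 72, against 14.9% of all starts. A match of letters shows no binding. The 4 windows below, of 30 bases each, are shown because they hold an exact motif at genes described further on or among the most abundant. Capitals mark the pyrimidine run from the first transcribed base. They lie at chr3:90213634-90213663 (minus strand), chr17:33955651-33955680 (minus), chr11:114668565-114668594 (plus) and chr4:86857353-86857382 (minus).
Rps27: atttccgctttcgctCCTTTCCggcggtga
Rps18: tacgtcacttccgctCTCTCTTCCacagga
Rpl38: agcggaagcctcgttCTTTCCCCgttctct
Rps6: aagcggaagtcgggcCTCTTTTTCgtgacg

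Total counts were 17710154 to 25544275 per library. The labels hold 2 numberings for the columns of the table, and the columns were read by the S number that closes each description. The numbering in the titles would give 8 columns to other samples, and the comparisons below would then be between other samples. The columns read here as spleen cultures would be 2KO and deltaEmu. Those read here as 2KO and deltaEmu would be spleen cultures. For all 4 spleen samples the title and the description also disagree on SAHA: each title gives the opposite treatment to the description used here. If the titles are right, the sign of every SAHA difference below is reversed, and the cultures set against the femoral groups as LPS_IL4 are those that received SAHA. With the index, 10 pro-B cell markers summed to 39.2 to 48.1 CPM (a count relative to the total of its library) in the spleen cultures and 856 to 2879 CPM in the femoral libraries, and 10 mature B cell markers to 4357 to 5759 CPM and 341 to 708 CPM. Erythroid, neutrophil and stromal markers summed to at most 5.27, 0.459 and 0.161 CPM in the spleen cultures, against 2475 to 15570, 7025 to 21190 and 1220 to 8225 CPM in the femoral libraries. In such mixed samples, fewer cells of a type and less RNA per cell cannot be told apart.

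Of the 81 genes, 76 were expressed at 10 CPM or more on average and had a coding transcript in GENCODE vM21. Levels between genes were compared per kilobase of mRNA, as CPM averaged over the 10 libraries. They had a median of 1466 and quartiles of 1096 and 1990 CPM per kilobase. The highest were Rps29 (4608), Rps28 (4272), Rps27 (3882), Rps12 (3752) and Rplp1 (3723), all with mRNAs under 500 bases. The lowest of the 76 were Rps27l (340), a paralog of Rps27 that p53 induces, and Rps20 (221), whose reference transcript has 3706 bases. Counted per kilobase of merged exons in place of mRNA, the highest were Rps12 (3894), Rplp1 (3753), Rps29 (2593), Rpl37a (2307) and Rps24 (2185). The 5 genes left out were the paralogs Rpl3l, Rpl39l, Rpl10l and Rps4l and the gene Rpl24, described at the end.

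Between the replicates of LPS_IL4, and between those of RAG2_deficient, the summed level differed widely. All 81 genes together took 12.7% and 14.03% of counts in LPS_IL4_SAHA, 13.6% (replicate 4_et_7) and 7.66% (6_et_8) in LPS_IL4, 6.85% and 5.63% in 2KO, 5.78% and 7.03% in deltaEmu, and 8.05% (replicate 1) and 4.68% (2) in RAG2_deficient. CPM here are counts over library sizes scaled by trimmed mean of M values (TMM). On that scale the sums averaged 146285 ± 14826 CPM in LPS_IL4_SAHA, 111043 ± 51601 in LPS_IL4, 58798 ± 9301 in 2KO, 63465 ± 10810 in deltaEmu and 63136 ± 31891 in RAG2_deficient (SD, n = 2 each). The SD within LPS_IL4 and within RAG2_deficient was larger than the differences among the 3 femoral means. LPS_IL4 6_et_8 lay near the femoral libraries, while the other 3 cultures stood apart above them. The ratio of summed 40S to summed 60S CPM was 0.714 to 0.7495 in the 4 spleen cultures and 0.7516 to 0.832 in the 6 femoral libraries. These ranges nearly touch, while the ratio was 0.811 and 0.752 in the replicates of RAG2_deficient and 0.761 and 0.832 in those of deltaEmu. In each group the replicate with the lower summed level had the lower ratio.

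**Figure D1:**
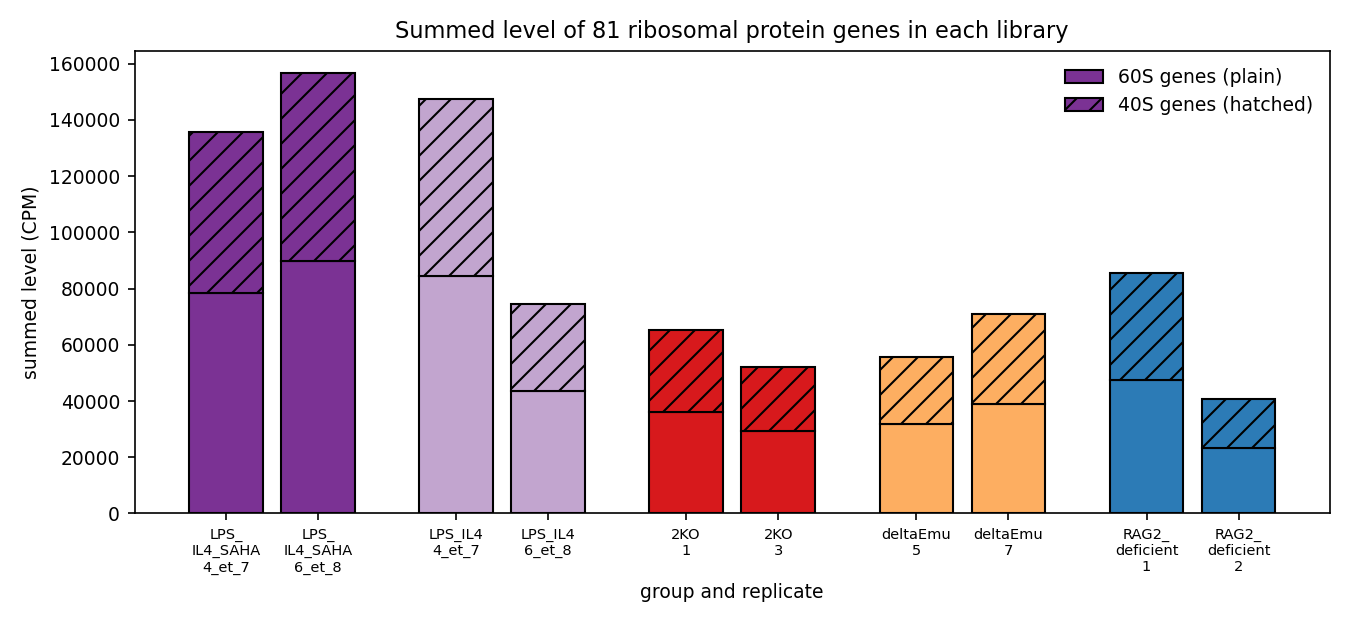
Summed TMM-scaled CPM of the 81 genes in each library (y axis), plain for 60S and hatched for 40S genes, by group and replicate (x axis). LPS_IL4 6_et_8 (74556 CPM) reaches about the height of the femoral libraries (40586 to 85686), and the other 3 cultures reach 135801 to 156769.

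Within LPS_IL4 and RAG2_deficient the split between replicates was shared by every gene and graded by mRNA length. All 76 genes were lower in LPS_IL4 6_et_8 than in LPS_IL4 4_et_7 (median log2 ratio -1.05, from -1.64 for Rps27 to -0.30 for Rps2), and all 76 were lower in RAG2_deficient 2 than in RAG2_deficient 1 (median -1.06, from -1.84 for Rps29 to -0.38 for Rpl5). A length of 700 bases divides the 76 into 38 shorter and 38 longer mRNAs. The median ratio was -1.23 for shorter and -0.86 for longer genes in LPS_IL4, and -1.29 and -0.92 in RAG2_deficient. Across the 76 genes Spearman's rho between length and log2 ratio was 0.69 in LPS_IL4 (Pearson's r 0.63 with log2 length) and 0.65 in RAG2_deficient (r 0.62), given as a description, since all points come from the same 2 libraries.

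Other genes with short mRNAs moved with them. The 249 other protein-coding genes under 700 bases had a median log2 ratio of -0.91 in LPS_IL4 and -1.06 in RAG2_deficient, against -0.01 and -0.04 for the 8339 longer ones. In the other groups the replicate ratios were smaller (medians 0.20 in LPS_IL4_SAHA, -0.32 in 2KO, 0.38 in deltaEmu), with rho of -0.21, 0.68 and -0.67. The part of RNA quality or fragment selection in these differences was not tested.

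**Figure D2:**
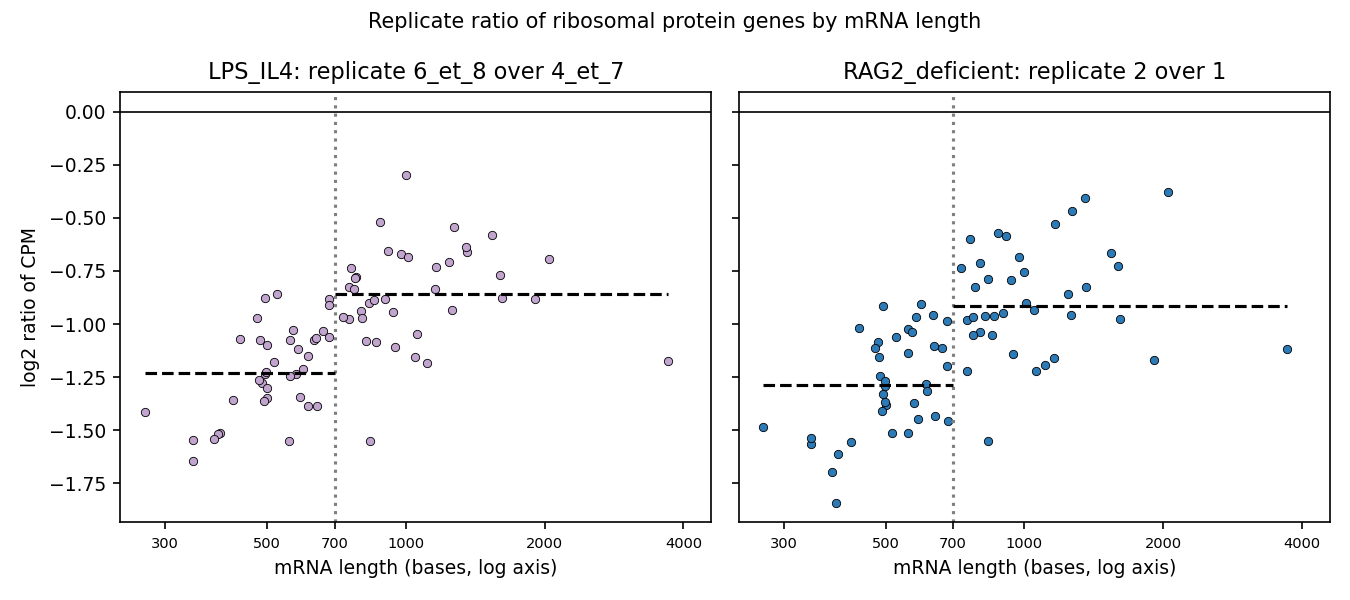
Log2 ratio of CPM between the 2 replicates (y axis) against mRNA length in bases (x axis, log scale) for 76 genes, in LPS_IL4 (6_et_8 over 4_et_7) and RAG2_deficient (2 over 1). Dashed lines are the medians under and over 700 bases (dotted line): -1.23 and -0.86 in LPS_IL4, -1.29 and -0.92 in RAG2_deficient. All points lie below 0.

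**Figure D3:**
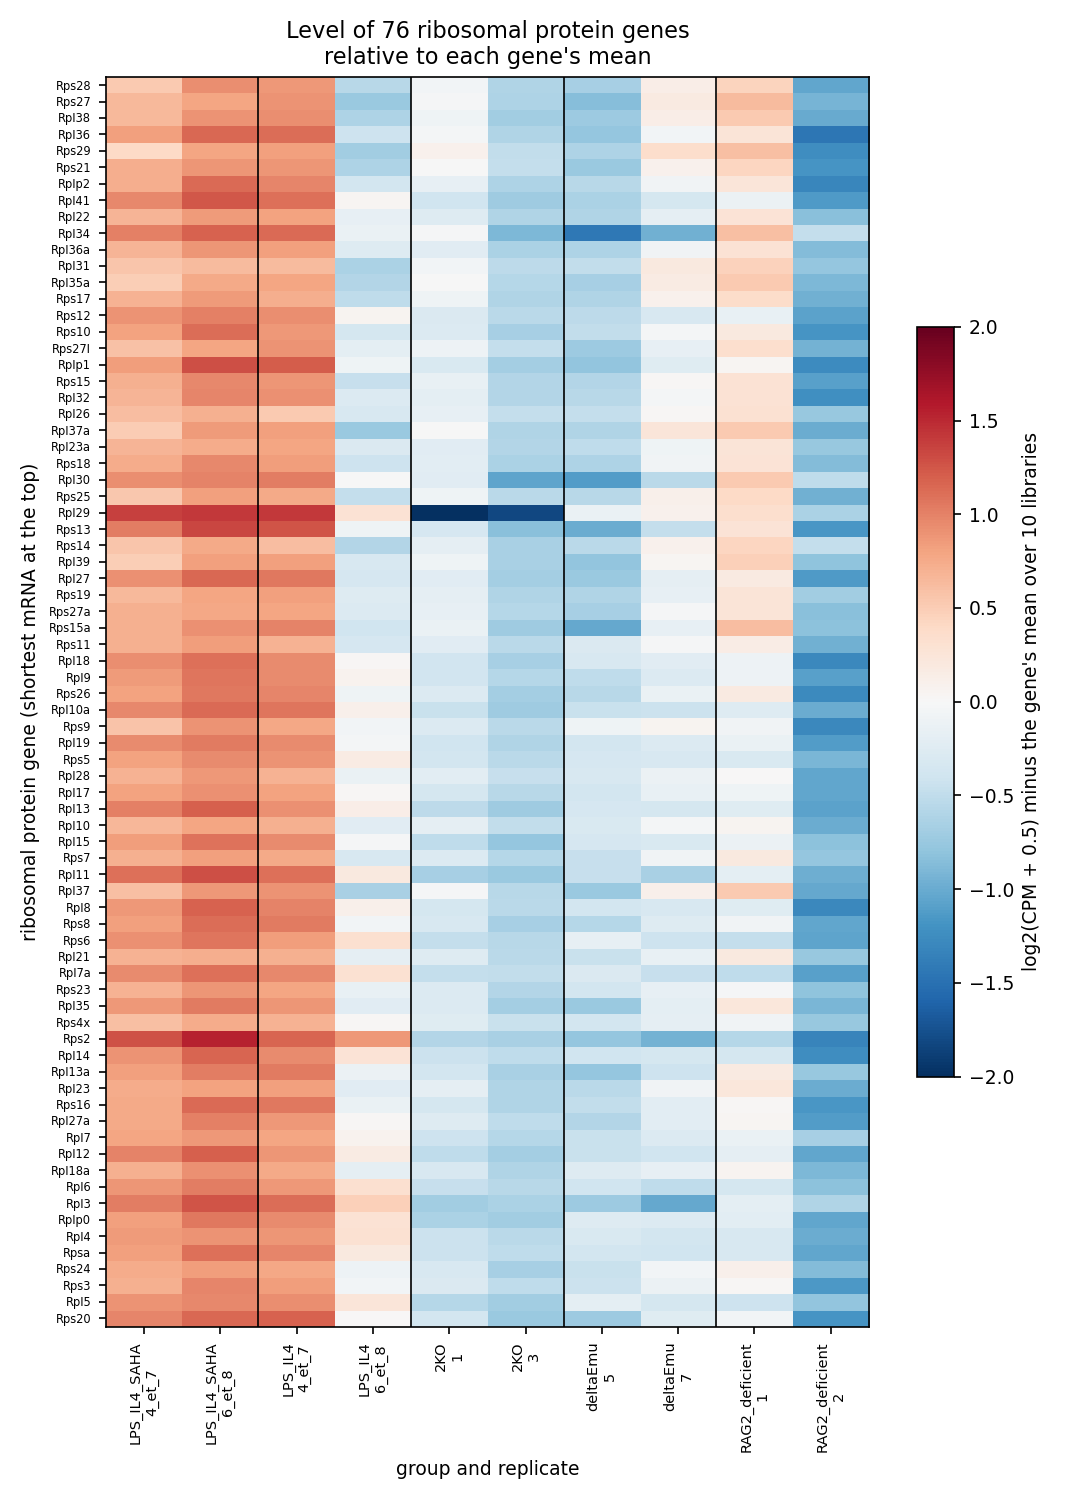
Level of each of 76 genes (rows, shortest mRNA at the top) in each library (columns), as log2(CPM + 0.5) minus that gene's mean over the 10 libraries. Most rows follow their library. Rpl29 departs in both 2KO libraries, and Rpl34, Rpl30 and Rpl3 in the deltaEmu libraries. Rpl34 and Rpl30 are also low in 2KO 3.

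2KO was compared with deltaEmu to ask whether the genes differ between these genotypes. Of 80 tested genes 1 was called lower and 0 higher, where 1.91% of all 16538 genes were called lower and 1.79% higher (edgeR quasi-likelihood test, Benjamini-Hochberg adjusted p of 0.05 over all genes). At an unadjusted p of 0.05 the count was also 1, where 2597 of all 16538 genes passed, and DESeq2 called 1 lower and 0 higher. In either direction 3.7% of all genes were called. The median log2 fold change was -0.10 over the 80 genes and -0.01 over all genes. The libraries of the 2 groups did not overlap for 3 genes higher in 2KO, Rpl34, Rpl3 and Rps2 (26.4% of all genes), and 17 lower (30.6%).

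The gene called was Rpl29, a 60S protein also known as a heparin-binding protein of the cell surface, at chromosome 9, 106429454 to 106431568 (mm10, plus strand). Rpl29 had 77.7 and 109 CPM in 2KO, against 353 and 408 CPM in deltaEmu and 484 and 247 CPM in RAG2_deficient. Both 2KO libraries lie below all 8 others, and the groups do not overlap. The log2 fold change was -2.01 ± 0.34 over deltaEmu (SE, adjusted p = 0.0193) and -1.99 ± 0.34 over RAG2_deficient (adjusted p = 0.0231), both by edgeR. Without 1 of the 2KO or deltaEmu libraries the log2 value over deltaEmu was -1.79 to -2.27, with adjusted p of 0.0762 to 0.175. Over RAG2_deficient the adjusted p was likewise 0.0691 to 0.122 without 2KO 1, 2KO 3, deltaEmu 5 or deltaEmu 7. Erythroid markers were also higher in 2KO (10490 and 15570 CPM, against 2475 and 2617 CPM in deltaEmu, 9 of 9 tested markers called higher); their part in the Rpl29 value was not tested.

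The copies Gm13841 and Gm8210 of Rpl29 ran the other way. A copy was defined as any annotated transcript with at least 90% identity over at least 50% of a member's coding sequence. Of the 81 genes 74 had such copies, 779 in all, of which 734 are processed pseudogenes. Rpl29 had 46. Among those with more reads, Gm5561 (log2 0.49, edgeR adjusted p = 0.617) and 4931440P22Rik (0.07, adjusted p = 0.973) were not called between 2KO and deltaEmu. The copies Gm13841 (chromosome 5) and Gm8210 (chromosome 1) match its 480 coding bases but for the same 3 substitutions, C72A, C300T and T423C, counted from the first coding base with the base of Rpl29 first. The window of coding bases 42 to 101 (GENCODE vM21), shown for how little separates the 3 genes, has the differing base in capitals.
Rpl29: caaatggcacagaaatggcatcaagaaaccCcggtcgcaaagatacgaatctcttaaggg
Gm13841: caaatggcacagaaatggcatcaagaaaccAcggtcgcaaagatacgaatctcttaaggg
Gm8210: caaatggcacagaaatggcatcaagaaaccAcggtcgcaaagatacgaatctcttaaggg

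Gm13841 had 31.8 and 21.0 CPM in 2KO, against 3.40 and 3.14 in deltaEmu and 2.43 and 2.08 in RAG2_deficient (log2 3.02 ± 0.27 over deltaEmu, edgeR adjusted p = 0.00129). Gm8210 had 27.8 and 17.6 CPM in 2KO, no count in deltaEmu and 1 count in RAG2_deficient. It was at least 142-fold higher in 2KO than in deltaEmu (taking 3 counts per library as the floor, adjusted p = 0.000662 by edgeR), and the ratio over RAG2_deficient was 845, with a 95% exact counting interval of 151 to 33400. Both copies are high in 2KO alone among the femoral groups. This is not particular to Rpl29: copies of Rplp0 summed to 269.8 and 235.2 CPM in 2KO and 10.8 to 31.4 CPM in the other femoral libraries. Rplp0 itself had 1292 and 1245 CPM in 2KO, 1676 and 1674 CPM in deltaEmu and 1736 and 979 CPM in RAG2_deficient, and was not called. The copies of Rpl29 held 46.6% and 29.8% of the reads of Rpl29 and its copies together in 2KO, against 2.71% to 3.87% in the other 4 femoral libraries. With the copies' counts added to Rpl29 the difference over deltaEmu was -1.37 ± 0.31 (adjusted p = 0.0588) and over RAG2_deficient -1.35 ± 0.31 (adjusted p = 0.0543), both edgeR, so that neither was called. How reads with several matches were counted is not given in the sources used here, and its part in the Rpl29 value was not tested.

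2KO was next set against RAG2_deficient. Of 80 genes 2 were called lower (Rpl29 and Rpl3l) and 0 higher, where 3.05% of all genes were called lower and 1.26% higher (4.31% in either direction). The unadjusted count was 2, where 3183 of all genes passed, and DESeq2 called 2 lower and 0 higher. Libraries did not overlap for 2 genes higher (25.5% of all genes) and 4 lower (21.8%). The median was -0.13 over the 80 genes. That median turned with the RAG2_deficient library used: it was 0.53 without RAG2_deficient 1 and -0.60 without RAG2_deficient 2. Without RAG2_deficient 1, 5 of these genes were called higher, while calls over all genes were 1562 higher and 1660 lower. Rpl3l, a paralog of Rpl3 known from striated muscle, had 2.57 and 2.00 CPM in 2KO, against 8.06 and 6.54 CPM in RAG2_deficient (log2 -1.70 ± 0.29, edgeR adjusted p = 0.0227). The call was lost without 2KO 1, 2KO 3, deltaEmu 5 or deltaEmu 7 (adjusted p of 0.0705 to 0.196), and both Rpl3l and Rpl29 lost it in a fit of these 2 groups alone (0.0735).

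deltaEmu against RAG2_deficient gave 1 gene called lower (Rpl3l) and 0 higher of 80, where 5.39% of all genes were called lower and 4.42% higher (9.81% in either direction). At an unadjusted p of 0.05 there were 2, where 4229 of all genes passed, and DESeq2 called 2 lower and 0 higher. Libraries did not overlap for 4 genes higher (28.3% of all genes) and 4 lower (24.4%). The median was -0.03 over the 80 genes, or 0.02 when libraries were scaled by total counts, and -0.01 over all genes. The median was 0.62 without RAG2_deficient 1 and -0.49 without RAG2_deficient 2. Without RAG2_deficient 1, 18 of these genes were called higher, while calls over all genes were 2694 higher and 2707 lower. Rpl3l had 2.51 and 2.74 CPM in deltaEmu, against 8.06 and 6.54 CPM in RAG2_deficient (log2 -1.51 ± 0.29, edgeR adjusted p = 0.0171). Its adjusted p was 0.191 without deltaEmu 5 and 0.127 without deltaEmu 7.

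Stromal markers summed to 1712 and 1220 CPM in 2KO and 2368 and 2463 CPM in deltaEmu, against 8225 and 7226 CPM in RAG2_deficient. Of the 8 tested stromal markers 6 were called lower in 2KO and 8 in deltaEmu. Pro-B markers summed to 1263 and 856 CPM in 2KO and 1014 and 1341 CPM in deltaEmu, against 2861 and 2879 CPM in RAG2_deficient, with 5 of 10 called lower in each comparison. A set of 8 skeletal muscle genes, chosen after Rpl3l was seen, summed to 15.6 and 16.8 CPM in 2KO, 21.0 and 41.3 CPM in deltaEmu and 35.3 and 19.6 CPM in RAG2_deficient. There both 2KO libraries lie below both RAG2_deficient libraries, and deltaEmu overlaps with RAG2_deficient. The part of other cells in the Rpl3l values was not tested.

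Rpl34, Rpl3 and Rpl30, 60S proteins of which Rpl3 lies beside the peptidyl transferase centre, were low in deltaEmu without passing the test. Rpl34 had 226 and 314 CPM in deltaEmu, against 925 and 436 CPM in RAG2_deficient (log2 -1.37 ± 0.43, edgeR adjusted p = 0.0923). Rpl3 had 837 and 685 CPM in deltaEmu, against 1216 and 918 CPM in RAG2_deficient (-0.53 ± 0.26, adjusted p = 0.248). Rpl30 had 333 and 496 CPM, against 1037 and 505 CPM (-0.93 ± 0.42, adjusted p = 0.216). In each of the 3 genes the deltaEmu libraries lie below both RAG2_deficient libraries, a pattern that 24.4% of all tested genes share. It is not particular to deltaEmu: 2KO had 601 and 326 CPM of Rpl34, 616 and 348 CPM of Rpl30, and 857 and 891 CPM of Rpl3, the last also below both RAG2_deficient libraries. These genes were picked after their values were seen, because copies of each were called in the same comparison. Copies were also higher in deltaEmu for genes that were not themselves lower there. The copies of Rps13 summed to 65.9 and 84.0 CPM in deltaEmu, against 8.06 and 3.39 CPM in RAG2_deficient. Rps13 itself had 283.5 and 405.5 CPM in deltaEmu and 684.1 and 250.9 CPM in RAG2_deficient, which overlap. Rps15a and Rpl11 had the same arrangement.

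Rpl34-ps1 (chromosome 6) had 89.4 and 186 CPM in deltaEmu and 20.5 and 45.0 CPM in 2KO, against 4.92 and 2.18 CPM in RAG2_deficient. The log2 fold change over RAG2_deficient was 5.26 ± 0.59 for deltaEmu and 3.20 ± 0.56 for 2KO (edgeR adjusted p = 0.00237 and 0.0243). Rpl3-ps1 (chromosome X) had 154 and 151 CPM in deltaEmu and 89.0 and 56.3 CPM in 2KO, against 8.06 and 5.87 CPM in RAG2_deficient (4.42 ± 0.29 and 3.36 ± 0.28, adjusted p = 0.000203 and 0.00112). Gm12191 (chromosome 11), which differs from Rpl30 by 1 base, had 23.4 and 39.2 CPM in deltaEmu, against 8.06 and 3.88 CPM in RAG2_deficient (2.37, adjusted p = 0.0141). Rpl34-ps1 and Rpl3-ps1 were thus called higher in both deltaEmu and 2KO than in RAG2_deficient, and the difference between 2KO and deltaEmu did not pass the test (adjusted p = 0.0714 and 0.064). The copies made up 29.2% and 37.5% of the reads of Rpl34 and its copies in deltaEmu, 4.53% and 13.9% in 2KO, and 1.21% and 1.46% in RAG2_deficient. With copies added, the deltaEmu difference from RAG2_deficient was -0.78 ± 0.43 for Rpl34, -0.27 ± 0.26 for Rpl3 and -0.84 ± 0.42 for Rpl30.

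Rpl34-ps1 differs from Rpl34 at T132C and C318G of 351 coding bases, and Rpl3-ps1 from Rpl3 at C57A and T786C of 1209. The windows of coding bases 102 to 161 of Rpl34 and 27 to 86 of Rpl3 show the first of these in capitals, 1 differing base in 60.
Rpl34: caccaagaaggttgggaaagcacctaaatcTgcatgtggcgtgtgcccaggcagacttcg
Rpl34-ps1: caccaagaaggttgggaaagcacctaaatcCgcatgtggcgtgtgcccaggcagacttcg
Rpl3: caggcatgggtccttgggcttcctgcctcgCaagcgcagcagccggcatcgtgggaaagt
Rpl3-ps1: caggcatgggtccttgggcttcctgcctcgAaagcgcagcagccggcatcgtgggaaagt

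**Figure D4:**
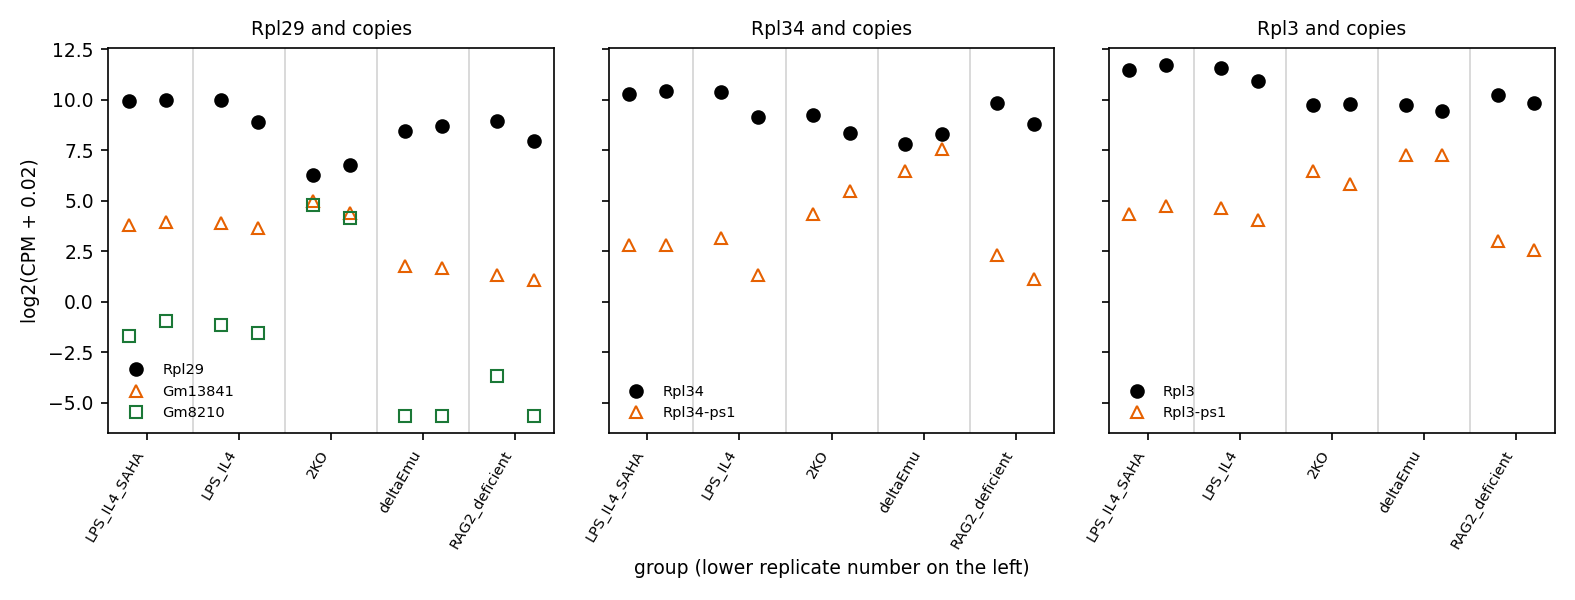
Level of Rpl29, Rpl34 and Rpl3 (filled circles) and of their copies (open symbols) in each library as log2(CPM + 0.02), by group (x axis). Rpl29 is lowest and both of its copies drawn here are highest in 2KO; Rpl34-ps1 and Rpl3-ps1 are highest in deltaEmu (89.4 to 186 and 151 to 154 CPM). The lowest open squares are libraries with no count of Gm8210.

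Rps3a1, a 40S gene on chromosome 3 outside the name rule, showed the same arrangement and passed the test. Rps3a1 had 498 and 570 CPM in deltaEmu and 1012 and 899 CPM in 2KO, against 1399 and 953 CPM in RAG2_deficient (log2 -1.18 ± 0.28 for deltaEmu, edgeR adjusted p = 0.0389). Rps3a3 on chromosome 13 had 449.8 and 450.4 CPM in deltaEmu and 97.0 and 102 CPM in 2KO, against 3.08 and 2.18 CPM in RAG2_deficient (7.38 ± 0.26 for deltaEmu, adjusted p = 4.26e-05). Rps3a3 was looked at after Rps3a1 had been seen. In deltaEmu the level of Rps3a3 came near that of Rps3a1. Whether the Rps3a1 call would hold with the counts of Rps3a3 added, or with any 1 library left out, was not tested. Over all copies of the 81 genes, 18 were called higher and 1 lower in deltaEmu than in RAG2_deficient, 15 higher and 0 lower in 2KO than in RAG2_deficient, and 6 higher and 3 lower in 2KO than in deltaEmu, of 235 tested. The shares of all genes called higher in these comparisons were 4.42%, 1.26% and 1.79%. In LPS_IL4 over the femoral groups 233 of 303 tested copies were called higher and 10 lower, where 26.6% of all genes were called higher.

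SAHA was compared with culture in LPS and interleukin 4 alone. None of 78 tested genes was called in either direction, and the background was 0 (0 of 13913 genes by edgeR and 0 by DESeq2; at an unadjusted p of 0.05, 187 genes and 0 of the 78). The median log2 fold change was 0.35 over the 78 genes, 77 of them positive, and -0.03 over all genes. This median rests on LPS_IL4 6_et_8: without that library it was -0.03, and without LPS_IL4 4_et_7 it was 0.98, with 69 of these genes called higher and calls over all genes of 1085 higher and 1585 lower. The 3 HDAC inhibitor response markers summed to 22.5 and 25.8 CPM in LPS_IL4_SAHA and 26.2 and 23.1 CPM in LPS_IL4, which overlap, and none was called (median log2 -0.59), so they do not settle which SAHA label is right.

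Single genes show the same split. Rplp1, an acidic protein of the stalk that binds translation factors, had 2815 and 3837 CPM in LPS_IL4_SAHA, against 3665 and 1488 CPM in LPS_IL4 (log2 0.33 ± 0.49, edgeR adjusted p = 0.939). Rpl38, a 60S protein known in mice for its part in translation of Hox mRNAs, had 1368 and 1635 CPM in LPS_IL4_SAHA, against 1658 and 569 CPM in LPS_IL4. Both SAHA libraries lie between the 2 LPS_IL4 libraries for Rpl38. The groups did not overlap for 8 genes higher with SAHA (15.7% of all genes did so) and 1 lower (10.2%); Rps2 was among the 8, with 2697 and 3227 CPM in LPS_IL4_SAHA and 2497 and 2030 CPM in LPS_IL4 (0.35 ± 0.30, adjusted p = 0.939). With the pools 4_et_7 and 6_et_8 as a block no gene was called, and the median was 0.45.

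LPS_IL4 was also set against the mean of the 3 femoral groups, a difference in which tissue, culture and labelled strain cannot be told apart. Of 80 tested genes 37 were called higher, where 26.6% of all 17483 genes were, and 1, Rpl3l, was called lower, where 34.6% were (61.2% in either direction). DESeq2 called 45 higher and 1 lower. Libraries did not overlap for 27 genes higher (25.1% of all genes) and 1 lower (34.1%). The median log2 fold change was 0.77 over the 80 genes, with 77 positive, and -0.15 over all genes. Among 40S genes 12 of 32 were called higher (median 0.74), and among 60S genes 25 of 48 (median 0.90). Libraries decided the count: 9 were called higher without LPS_IL4 4_et_7 (median 0.19), 70 without LPS_IL4 6_et_8 (median 1.325) and 62 without RAG2_deficient 1, while all genes called higher stayed at 4104 to 5046 when each library was left out in turn.

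The 5 largest increases were in Rps2, Rpl29, Rpl3, Rpl11 and Rps13. Rps2, a 40S protein at the mRNA entry channel, encoded at chromosome 17, 24718116 to 24721929, had 2497 and 2030 CPM in LPS_IL4, against 739 and 705 CPM in 2KO, 651 and 576 CPM in deltaEmu and 750 and 445 CPM in RAG2_deficient. Both LPS_IL4 libraries lie above all 6 femoral ones (log2 1.82 ± 0.22, edgeR adjusted p = 8.05e-05), and among the 76 genes Rps2 differed least between the LPS_IL4 replicates. Rpl29 had 1021 and 470 CPM in LPS_IL4 (1.67 ± 0.31, adjusted p = 0.00106, femoral values above, with 2KO far below the other 2 groups). Rpl3 had 2993 and 1924 CPM in LPS_IL4 and 685 to 1216 CPM in the femoral libraries (1.46 ± 0.23, adjusted p = 0.000355). Rpl11, which with Rpl5 carries 5S rRNA and can bind the p53 regulator Mdm2, had 1428 and 765 CPM in LPS_IL4 and 339 to 585 CPM in the femoral libraries (1.31 ± 0.26, adjusted p = 0.00185). Rps13 had 1356 and 534 CPM in LPS_IL4 and 251 to 684 CPM in the femoral libraries, which overlap (1.26 ± 0.40, adjusted p = 0.0198); its adjusted p was 0.425 without LPS_IL4 4_et_7.

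Among the other genes with known roles, Rpl5 (log2 1.13 ± 0.22), Rplp0 (1.16 ± 0.26), the base of the stalk, Rplp1 (1.19 ± 0.39), Rpsa (1.14 ± 0.27), Rps6 (1.12 ± 0.21), the substrate of S6 kinase, and the X-linked Rps4x (0.72 ± 0.25) were called higher. Rpl5 and Rps6 were called with any 1 library left out. Without LPS_IL4 4_et_7 the adjusted p was 0.463 for Rplp1 (log2 0.40), 0.345 for Rps4x (0.35), 0.082 for Rpsa and 0.0557 for Rplp0 by edgeR, and Rps4x also lost its call without 2KO 3 or deltaEmu 5. Rps19, mutated in human Diamond-Blackfan anaemia, had 1661 and 789 CPM in LPS_IL4 and 582 to 1130 CPM in the femoral libraries, and was not called (0.67 ± 0.32, edgeR adjusted p = 0.1). Rps27a, made as a fusion with ubiquitin (0.64 ± 0.35), Rpl10, a late-joining 60S protein (0.61 ± 0.31), Rpl22 (0.73 ± 0.32), Rplp2 (0.79 ± 0.42), Rpl39 (0.59 ± 0.40) and Rpl38 (0.57 ± 0.46) were not called either. The calls followed mRNA length: 28 of 38 longer genes were called higher (median 1.01) and 9 of 38 shorter ones (median 0.68), and over the 76 genes Spearman's rho between length and log2 fold change was 0.46 (r 0.43 with log2 length), a description over genes of the same libraries.

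**Figure D5:**
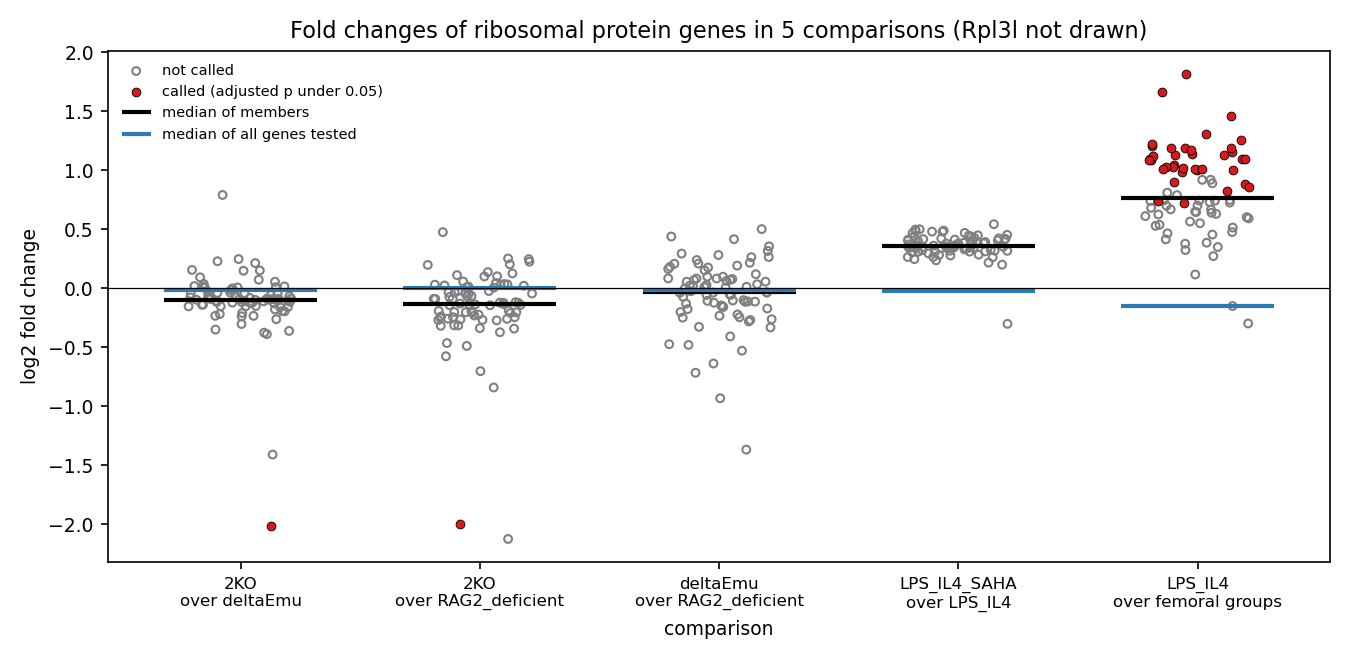
Log2 fold change (y axis) of each tested gene in 5 comparisons (x axis); filled points were called at an adjusted p of 0.05, and lines mark the medians of these genes (black) and of all genes tested (blue). Rpl3l, called lower in 3 comparisons, is not drawn because of its scale. The medians are -0.10, -0.13, -0.03, 0.35 and 0.77 from left to right, and filled points other than Rpl29 appear in LPS_IL4 over the femoral groups.

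Genes around ribosome production that the rule leaves out were counted in the same way. In LPS_IL4 over the femoral groups, 17 of 21 translation factors and other genes with TOP mRNAs were called higher and 0 lower (median 0.95), among them Eef1g (1.83 ± 0.22) and the nucleolar chaperone Npm1 with 3609 and 2996 CPM in LPS_IL4 and 657 to 884 CPM in the femoral libraries (2.08 ± 0.19, edgeR adjusted p = 1.29e-05). Chaperones and importers of ribosomal proteins were called higher in 11 of 13 (median 1.33), with Heatr3, which escorts Rpl5, at 1.74 ± 0.13 and Grwd1, which escorts Rpl3, at 2.16 ± 0.18. RNA polymerase I genes were called higher in 11 of 15 (median 1.00; Polr1b 1.81 ± 0.12 and Polr1e 1.81 ± 0.16), regulators of TOP mRNA translation in 5 of 15 (0.30; Eif4e 1.10 ± 0.12 and Eif4g1 1.22 ± 0.18), and mitochondrial ribosomal protein genes in 63 of 76, with Mrpl33 lower (0.92; Mrpl45 2.05 ± 0.14 and Mrps27 1.66 ± 0.15).

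Of 13 p53 response genes 7 were called higher, such as Aen (1.35 ± 0.13) and Ccng1 (1.29 ± 0.15), and 3 lower: Cdkn1a (-1.59 ± 0.24), Trp53inp1 (-1.53 ± 0.28) and Eda2r (-2.59 ± 0.62). Of ribosomal protein genes outside the name rule, Rpl7l1 (1.27 ± 0.20), Rps3a1 (1.43 ± 0.24) and Gnb2l1 (encoding RACK1, 1.11 ± 0.25) were called higher, and Fau (0.59 ± 0.36), Rpl22l1 (0.74 ± 0.36) and Rpl36al (0.39 ± 0.33) were not. These shares stand against 26.6% of all genes called higher. None of the 7 lists had a call with SAHA or between 2KO and deltaEmu. Against RAG2_deficient there were 3 calls besides Rps3a1: Trp53inp1 was lower in 2KO (-1.38 ± 0.25) and in deltaEmu (-1.11 ± 0.24), and Pmaip1, a BCL2 family gene, higher in deltaEmu (1.71 ± 0.32).

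The paralogs Rpl3l, Rpl39l, Rpl10l and Rps4l stayed low, unlike Rps27l. Rpl3l was at 0, 0, 0 and 0.0402 CPM in the spleen cultures and 2.00 to 8.06 CPM in the femoral libraries, and the ratio of LPS_IL4 to the femoral groups was 0.00582, resting on 1 count (95% exact counting interval 0.000147 to 0.0326). The gene lies near Rps2, at chromosome 17, 24727820 to 24736143, and Rps2 moved the other way. Rpl39l, known from testis, had 0 to 1.13 CPM, and Rpl10l, also a testis gene, had no count in any library. Rps4l had 2.17 to 8.06 CPM with no difference called, and Rps27l had 80.9 to 291 CPM, 291 and 136 CPM in LPS_IL4 and 80.9 to 196 CPM in the femoral libraries (0.74 ± 0.35, edgeR adjusted p = 0.0907).

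Rpl24, a 60S gene, was counted at 3.20 to 5.20 CPM in all 10 libraries, while none of the 76 genes above fell below 77.7 CPM in any library. By the exon coordinates of the count table, 47.0% of its exon bases are shared with Gm28037 on the same strand, an entry with 0 counts here. The counts of its copies were 700.8% of its own, led by Gm9385, which differs from it by 1 base. Alone, Rpl24 differed by 0.12 ± 0.22 between LPS_IL4 and the femoral groups (edgeR adjusted p = 0.66), and with copies added by 1.58 ± 0.20 (adjusted p = 9.36e-05). The deposited count of Rpl24 is uncertain, and the part of the shared exons and of the copies in its low value was not tested. The counts of the copies of Rpl41 were 68.4% of its own, and for 14 of the 81 genes this ratio was over 5%. As a share of Rpl41 and its copies together, the copies held 29.6% to 54.7% by library.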

How the data were processed

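RNA was sequenced from stranded total RNA libraries of 10 pools. Reads were aligned with STAR (2.4.0a) to GRCm38 (mm10) and counted with featureCounts of Subread (1.4.6-p1), per the submitters' processing notes, and the authors deposited 1 table of raw counts per gene. Not given in the sources used here: which annotation release served, whether counting used strand, and how multi-mapping reads were handled. The 100 control sequences in the table were left out of library sizes and tests.

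Counts were tested with edgeR (4.0.16, limma 3.58.1, R 4.3.3): TMM scaling, filterByExpr with a minimum count of 10, the quasi-likelihood test, and Benjamini-Hochberg adjustment over all genes at 0.05. The 3 femoral groups shared 1 fit, the spleen groups another, and all 10 libraries entered a further one for LPS_IL4 over the mean of the femoral groups. Standard errors are the log2 fold change divided by the root of F. DESeq2 (1.42.0) was an alternative. The fits were tested on simulated data. Copies were found with blastn (2.17.0).

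The genes and lists were chosen with earlier results of these data known. One result of these lists is not reported here. The rule for named genes took up to 5 called genes per direction with the largest change, the 5 highest and 5 lowest per kilobase, a set list of genes with known roles, and the 2 genes of lowest adjusted p in each other list. Groups were taken from the labels, with pool names as replicate numbers in the cultures. Pools of the same name recur in both culture groups, but the main fit had no block, since the labels state no blocked analysis. Deviations of same-named pools correlated at -0.467. With 2 libraries per group the deviations of the pools mirror each other, so this value cannot show whether they are pairs. Counting intervals and floors cover counting error only. Adding the copies' counts, and a crossed pairing, were alternatives chosen after seeing the data.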

Additional observations from a re-analysis of the deposited data

How the results depend on the processing

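Without a low-count filter, 1 gene was called higher in 2KO than in deltaEmu, 3 lower in deltaEmu than in RAG2_deficient (2 with DESeq2) and 70 higher in LPS_IL4 than in the femoral groups. With copies added, 0 were lower in 2KO than in deltaEmu and 1 in 2KO than in RAG2_deficient, where a fit of those 2 groups alone called 0. Without immunoglobulin, mitochondrial and ribosomal RNA genes the summed level in LPS_IL4_SAHA averaged 163862 CPM. Where no value is given beside these, the cause was not tested.

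Leaving out 1 library at a time, the counts called and the median log2 fold change ran as follows. In 2KO over deltaEmu 0 were higher and 0 to 1 lower (median -0.28 to 0.12), in 2KO over RAG2_deficient 0 to 5 and 0 to 3 (-0.60 to 0.53), and in deltaEmu over RAG2_deficient 0 to 18 and 0 to 2 (-0.49 to 0.62). In LPS_IL4_SAHA over LPS_IL4 they were 0 to 69 and 0 (-0.032 to 0.985), and in LPS_IL4 over the femoral groups 9 to 70 and 1 (0.19 to 1.325). A group left with 1 library was assumed to vary like the others.

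Calls over all genes numbered 296 up and 316 down in 2KO over deltaEmu, against 783 and 754 without a filter, 463 and 486 with DESeq2, and 775 and 805 in the fit of 2 groups. In 2KO over RAG2_deficient they were 208 and 505, against 717 and 1254, 429 and 813, and 67 and 146. In deltaEmu over RAG2_deficient they were 731 and 891, against 1413 and 1895 without a filter. With SAHA they were 0 and 0, against 1 and 144 without a filter. In LPS_IL4 over the femoral groups the median of all genes was -0.15, or -0.24 scaled by total counts and -0.31 without a filter.

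With the replicate block of pool names, 0 genes were called with SAHA and the median was 0.45. Deviations of same-named pools correlated negatively, which does not settle whether they are pairs, and the crossed pairing called 0 genes as well. With 2 libraries per group, changes smaller than the spread between pools were not detectable.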
